A study of Mus musculus with 4 samples.

Results

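The Spp1 lipid-associated macrophage genes are Spp1, Gpnmb, Trem2, Cd9, Fabp5, Lgals3, Apoe, Acp5 and Plin2, 9 of the 21885 genes counted, found by their symbols in the files. They were selected on their measured levels across the sections and along the cardiomyocyte share of spots, so those levels are described here without a test. Expression was captured with Visium arrays, on which each spot covers several cells, in 10 µm fresh frozen heart sections from Col1a1-GFP reporter mice aged 8 to 12 weeks, and all groups carry this reporter of a fibroblast collagen gene. Infarction was made by permanent ligation of the left anterior descending coronary artery. There was 1 section of a healthy control heart, 1 taken 3 days after infarction (3 dpi) and 2 at 5 dpi, 1 labelled female and 1 labelled male, named 5 dpi F and 5 dpi M below. The control and 3 dpi have no replicate, and p-values measure the spread between 3 infarcted sections. Where a section was left out, p-values measure the spread between those kept.

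Macrophages that clear dying cells take up large amounts of membrane lipid, which they degrade in lysosomes, store in droplets or export as cholesterol. In fat, arteries, brain and fibrotic organs, macrophages under such a load carry TREM2, a receptor for lipids and lipoproteins that signals through the adaptor TYROBP, together with the matrix protein osteopontin (Spp1), GPNMB, CD9 and lipid-handling proteins. After infarction, macrophages derived from recruited monocytes fill the necrotic muscle and are followed by fibroblasts that lay down the scar.

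Kept spots numbered between 1146 and 1741 per section, with medians of 4967.5 to 6935 UMIs (unique transcripts), and mitochondrial UMIs were 40.1% of the total in the control and between 13.3% and 21.4% in the infarcted sections. Levels are therefore counts per 1000000 non-mitochondrial UMIs (CPM), with exact Poisson 95% intervals that cover counting error only. The infarct zone was a set of connected spots low in 12 cardiomyocyte genes and held 882 spots at 3 dpi and 1061 and 684 at 5 dpi. Border zone 2 lay within 2 spot steps of it, border zone 1 at 3 to 4 steps, and the remote zone farther out. Y-linked genes gave 704 UMIs in 5 dpi F and 1 in 5 dpi M, so the sex labels go against the data and F and M serve as names only. The control and 3 dpi sections gave 0, so by these genes 5 dpi F differed from all other sections. Sex cannot be told apart from other differences between the sections. The 11 pan-macrophage genes were present in every section and summed to 1007 CPM in the control and to 9067, 14035 and 13376 CPM in the infarct zones.

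A RefSeq start window on GRCm38.p6 was matched for 8 of the 9 genes, Fabp5 being the one without an entry. The 250 bases before the start are shown for Spp1, Trem2 and Apoe, the 3 genes whose positions within the infarct are described in most detail below. Capitals mark matches, on either strand, to AP-1 (TGANTCA), E-box (CACGTG), M-box (TCATGTG), PU.1 core (GAGGAA), C/EBP (TTNNGCAA) or a nuclear receptor half-site (AGGTCA), and no matches overlapped in the sequences shown. Spp1 lies at chr5:104434861-104435110 on the plus strand, Trem2 at chr17:48346151-48346400 on the plus strand and Apoe at chr7:19699189-19699438 on the minus strand, and each is written 5′ to 3′ along its gene.
Spp1: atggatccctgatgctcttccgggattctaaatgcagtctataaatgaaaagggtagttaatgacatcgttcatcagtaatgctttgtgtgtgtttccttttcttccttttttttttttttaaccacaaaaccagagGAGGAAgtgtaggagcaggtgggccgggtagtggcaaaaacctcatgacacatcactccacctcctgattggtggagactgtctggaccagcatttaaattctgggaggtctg
Trem2: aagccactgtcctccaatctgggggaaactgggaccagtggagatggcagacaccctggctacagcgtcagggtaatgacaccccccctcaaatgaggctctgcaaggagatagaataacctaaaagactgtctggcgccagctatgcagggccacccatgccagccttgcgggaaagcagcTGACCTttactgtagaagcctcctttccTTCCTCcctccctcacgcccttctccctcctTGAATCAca
Apoe: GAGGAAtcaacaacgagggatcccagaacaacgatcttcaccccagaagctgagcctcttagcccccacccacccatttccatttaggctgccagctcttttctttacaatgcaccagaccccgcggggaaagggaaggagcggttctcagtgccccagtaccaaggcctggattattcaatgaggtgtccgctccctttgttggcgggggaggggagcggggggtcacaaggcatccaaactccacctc

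These 3 are also the genes with a PU.1 core, 113 bases before the start in Spp1, 40 in Trem2 and 250 in Apoe, and 132 in another window of Apoe. The 8 genes have 13 windows, 2 for Spp1, 3 each for Apoe and Acp5 and 1 for each of the others. The core was found in none of the windows of Gpnmb, Cd9, Lgals3, Acp5 and Plin2, and in 23.3% of all 32851 windows of this length. Trem2 also held a nuclear receptor half-site (14.0% of windows), as did a window of Plin2, and an AP-1 match (6.75% of windows). The M-box (3.25% of windows) was found in a window of Acp5 and the E-box (6.02%) in none of the 8 genes. A further Spp1 window held the C/EBP letters, which 9.56% of windows contain. These letters are a description of the windows.

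In the uninjured heart, 5 of the 9 genes were close to absent. Spp1, a secreted ligand of integrins and CD44, gave 0 UMIs among 3742105, which allows a level of up to 0.80 CPM (3 counts). Its level was 1687 CPM at 3 dpi, 2146 CPM in 5 dpi F and 1044 CPM in 5 dpi M, an order kept for all sets of 3 values below, at least 2104-, 2677- and 1302-fold over that limit. Gpnmb, a lysosome-associated transmembrane glycoprotein, rested on 7 UMIs in the control (1.87 CPM) and reached 234, 449 and 347 CPM. Trem2 went from 5.08 CPM to 166, 321 and 261 CPM. Lgals3, the beta-galactoside-binding lectin galectin-3, went from 5.61 CPM to 672, 979 and 630 CPM. Acp5, the lysosomal acid phosphatase that also marks osteoclasts, rested on 4 UMIs in the control (1.07 CPM) and reached 45.9, 79.0 and 56.4 CPM. Each of the 5 was above the control by a factor of at least 32.6 in every infarcted section.

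The other 4 genes were already present in uninjured muscle. Apoe, the lipoprotein component through which cells export cholesterol, stood at 536 CPM in the control and at 2207, 5887 and 4839 CPM after infarction, 4.12- to 11-fold higher. Fabp5, an intracellular fatty acid carrier, went from 225 CPM to 808, 1138 and 1028 CPM. Plin2, the coat protein of lipid droplets, went from 45.7 CPM to 196, 273 and 203 CPM, and the tetraspanin Cd9 from 51.8 CPM to 136, 201 and 178 CPM. The step over the control was smallest for Cd9, at 2.63- to 3.88-fold. In such spots, fewer cells of a type and less RNA per cell cannot be told apart.

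Within the infarcted hearts Spp1 measured 74.5, 17.9 and 18.1 CPM in the remote zones and 2713, 2700 and 1773 CPM in the infarct zones. Gpnmb measured 21.1, 10.7 and 5.24 CPM against 360, 561 and 588 CPM, and Trem2 29.4, 44.2 and 24.2 CPM against 238, 385 and 423 CPM. Apoe measured 750, 1562 and 561 CPM against 3095, 6848 and 7752 CPM, and Cd9 55.7, 113 and 95.9 CPM against 177, 221 and 234 CPM. All 9 genes were higher in the infarct zone than in the remote zone of each section, which is the contrast they were selected on. In the same comparison 28.2% of 9811 genes were called higher and 25.9% lower, and nothing about the 9 genes is read from that. The log2 ratio of infarct over remote zone, as mean ± SD over 3 sections, was 6.34 ± 1.05 for Spp1, 5.54 ± 1.37 for Gpnmb, 3.95 ± 0.78 for Lgals3 and 3.42 ± 0.61 for Trem2. It was 2.66 ± 0.98 for Apoe, 2.55 ± 0.31 for Plin2, 2.07 ± 0.51 for Fabp5 and 1.3 ± 0.35 for Cd9. Acp5 rested on 5, 2 and 5 UMIs in the remote zones and measured 69.7, 97.8 and 94.0 CPM in the infarct zones, so no ratio is given for it. The other genes near absence in the control thus had the wider gradients. Between days, the median log2 ratio of 5 dpi over 3 dpi in the infarct zone over the 9 genes was 0.36 ± 0.06 (SD, n = 2 sections), from -0.01 and -0.61 for Spp1 to 1.15 and 1.32 for Apoe.

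The fall-off of Spp1 along the cardiomyocyte share was steep. Spots with under 1% of their UMIs in the 12 cardiomyocyte genes held 5184, 3311 and 2401 CPM, and spots with 1 to 5% held 1424, 423 and 357 CPM. At 5 to 10% the level was 214, 45.3 and 25.8 CPM. At 10 to 20% it was 65.7 CPM at 3 dpi, while each 5 dpi section held 1 UMI. In the first 3 ranges the 5 dpi sections held less Spp1 than the section of 3 dpi.

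The genes differed in where the level was reached. Spp1 was higher at each step inward: at 3 dpi the outermost 2 steps of the infarct (the rim) held 1359 CPM, the next 2 steps 3070 CPM and the spots farther in 3957 CPM. The same positions held 295, 1177 and 3333 CPM in 5 dpi F, and 173, 622 and 2094 CPM in 5 dpi M. The rim was thus lower in both 5 dpi sections than at 3 dpi, by a larger factor than the inner infarct. The rim held 357, 160 and 93 spots and the inner infarct 342, 813 and 533, so the belts differed in extent between sections. Steps inside the infarct were counted to the nearest spot not low in cardiomyocyte genes, and not to the tissue edge. Apoe had the opposite order of days, with 2192, 6516 and 4766 CPM in the rim and 3939, 6489 and 8144 CPM farther in. As a ratio, 62.0 Spp1 UMIs were counted per 100 Apoe UMIs in the rim at 3 dpi, against 4.53 and 3.63 at 5 dpi, and 100.5 against 51.4 and 25.7 in the inner infarct.

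**Figure D1:**
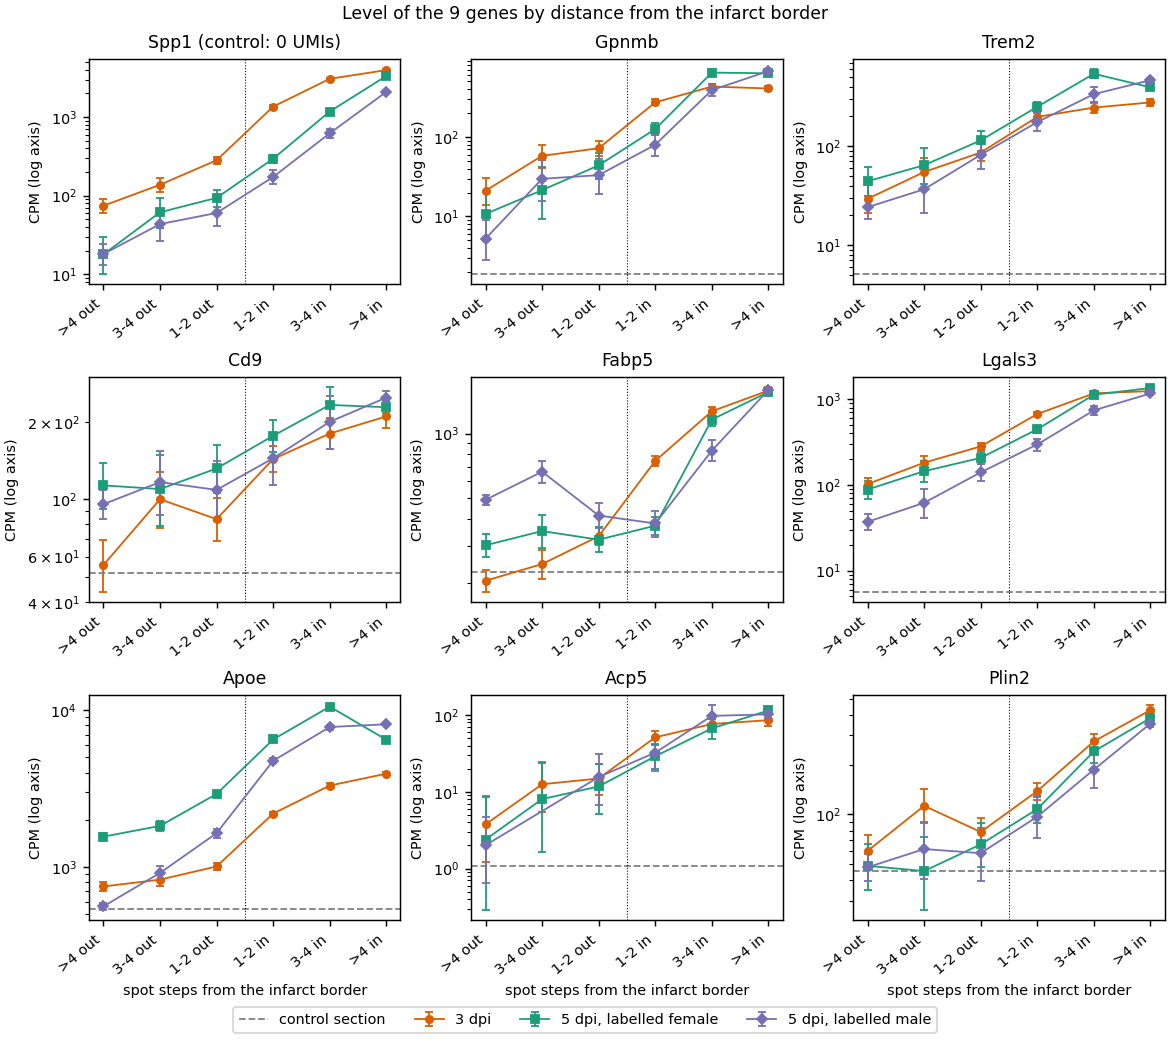
CPM (log axis) of each gene in 6 belts of spot steps outside and inside the infarct border (dotted line), for the 3 infarcted sections, with exact Poisson 95% intervals and the control section as a dashed line (Spp1 had 0 UMIs there, and Acp5 has no point where it had 0 UMIs). Spp1 climbs to 3957, 3333 and 2094 CPM in the innermost belt, and Apoe of 5 dpi F peaks at 10556 CPM at 3 to 4 steps.

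Trem2 and Apoe were highest at 3 to 4 steps inside the infarct of 5 dpi F. Trem2 measured 250 CPM in the rim, 538 CPM at 3 to 4 steps and 393 CPM farther in. Apoe measured 6516, 10556 and 6489 CPM at the same positions. In the other infarcted sections both genes were highest farther in, with 277 and 465 CPM of Trem2. Gpnmb reached its upper level by 3 to 4 steps at 3 dpi (432 CPM, then 408 CPM) and in 5 dpi F (647 CPM, then 634 CPM), whereas 5 dpi M held 389 and then 675 CPM. Fabp5 in 5 dpi M was uneven outside the infarct, with 491 CPM in the remote zone, 664 CPM at 3 to 4 steps and 414 CPM at 1 to 2 steps outside, then 380 CPM in the rim and 1600 CPM farthest in. Plin2, Lgals3 and Acp5 were higher at each step inside the infarct in all 3 sections.

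**Figure D2:**
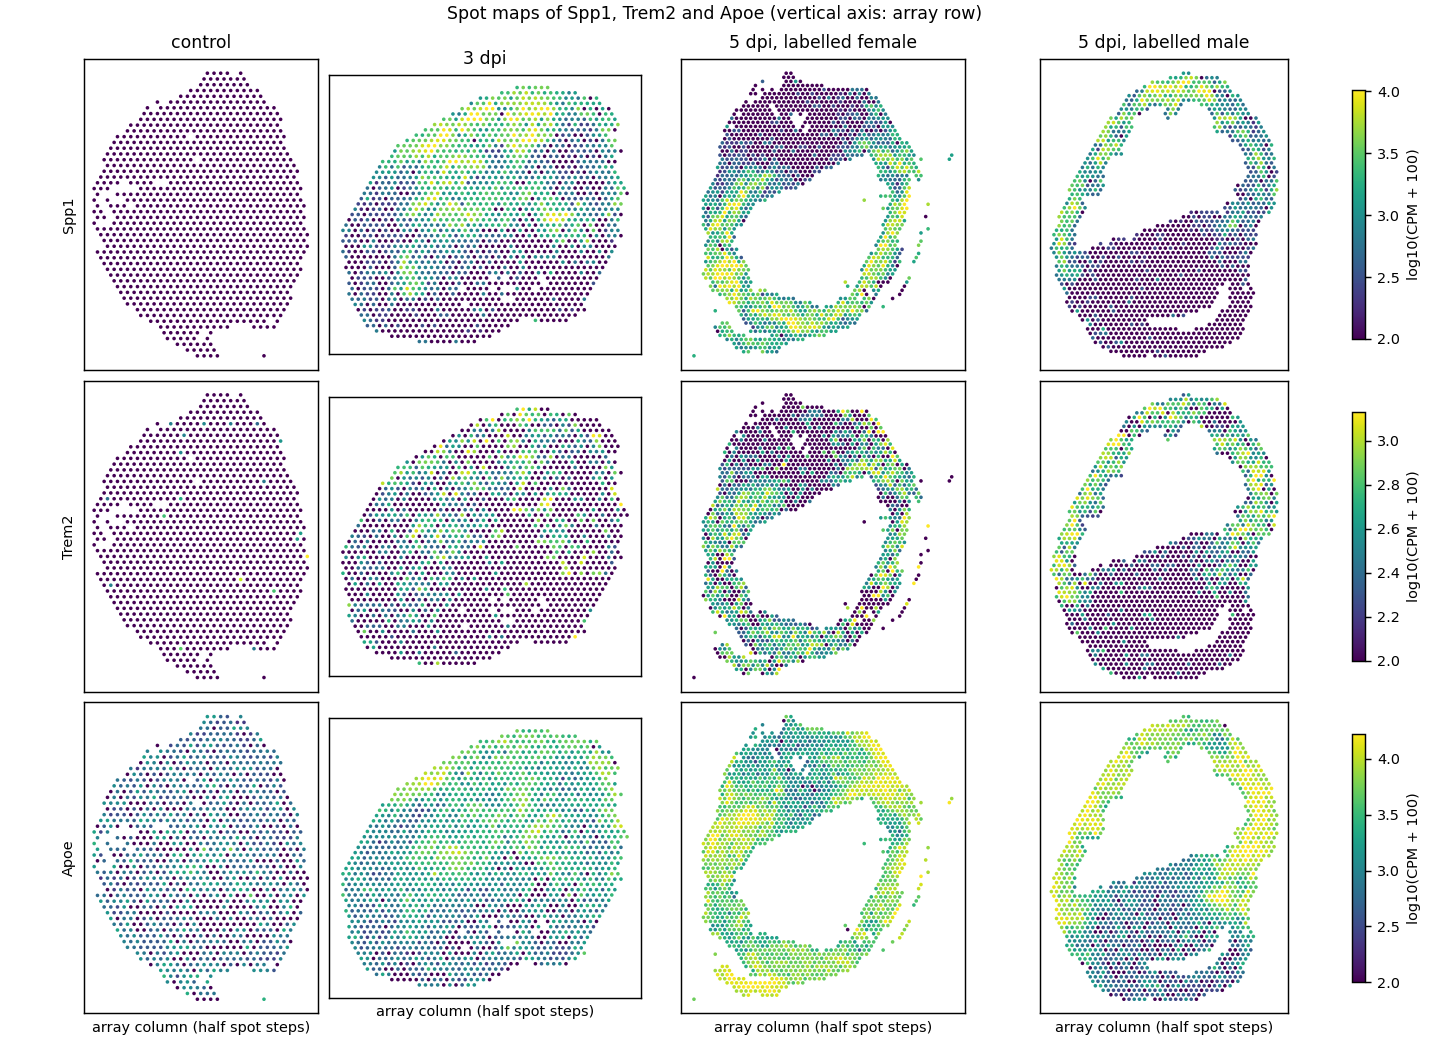
Spot maps of Spp1, Trem2 and Apoe as log10(CPM + 100) in the control section and the 3 infarcted sections, drawn on array columns and rows, with each colour scale shared along its row of maps. Spp1 is bright along the infarcted wall and dark in the control (0 UMIs), whereas Apoe is visible in the control as well (536 CPM).

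Set against macrophage RNA, the 9 genes fell into 2 groups. Spp1 gave 29.9, 19.2 and 13.3 UMIs per 100 UMIs of the 11 pan-macrophage genes in the infarct zones, and 3.94, 0.78 and 1.05 in the remote zones. Gpnmb gave 3.97, 3.99 and 4.40 in the infarct and 1.12, 0.47 and 0.30 in remote muscle. Lgals3 gave 11, 8.54 and 7.78 against 5.42, 3.82 and 2.14. Trem2 gave 2.62, 2.74 and 3.16 against 1.55, 1.91 and 1.40, and Acp5 gave 0.77, 0.70 and 0.70 against 0.20, 0.10 and 0.12, the latter from the few UMIs given above. For these 5 genes the infarct value was above the remote value in all 3 sections.

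The other 4 genes had no such order. Cd9 gave 1.95, 1.57 and 1.75 UMIs per 100 macrophage UMIs in the infarct, below 2.95, 4.91 and 5.55 in the remote zones and 5.15 in the control. Plin2 gave 3.05, 2.35 and 2.34 in the infarct and 3.19, 2.12 and 2.77 in remote muscle. Fabp5 gave 13, 9.65 and 10.5 in the infarct and 10.9, 13 and 28.4 in the remote zones, against 22.3 in the control. Apoe went down from 39.7 to 34.1 at 3 dpi and from 67.6 to 48.8 in 5 dpi F, and up from 32.4 to 58.0 in 5 dpi M. These ratios describe summed RNA of mixed cells: monocyte genes summed to 61.0, 104 and 67.7 CPM in the remote and 461, 427 and 345 CPM in the infarct zones, and resident macrophage genes to 133 CPM in the control, 195, 213 and 172 CPM in the remote and 249, 231 and 147 CPM in the infarct zones. The part of these lists in the ratios was not tested.

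**Figure D3:**
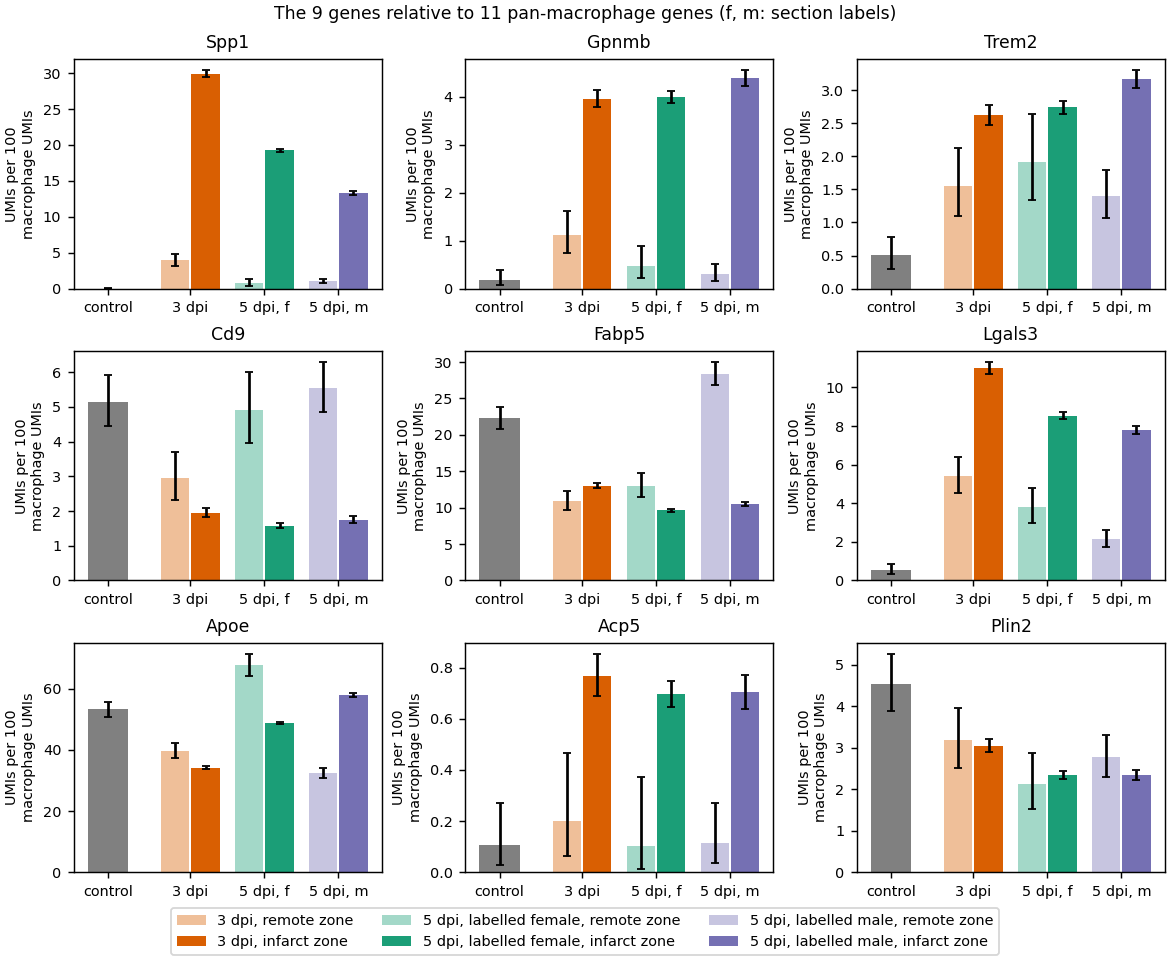
UMIs of each gene per 100 UMIs of 11 pan-macrophage genes in the control section (grey) and in the remote (pale) and infarct (full colour) zones of the 3 infarcted sections, with exact 95% Poisson intervals on the gene's count. Spp1 reaches 29.9 in the 3 dpi infarct, and Cd9 is lower in each infarct zone (1.57 to 1.95) than in the control (5.15).

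Correlations across infarct spots are a description, since the genes were selected along the cardiomyocyte share and also followed it inside the infarct. With that share r was -0.70, -0.62 and -0.61 for Spp1, -0.55, -0.47 and -0.49 for Fabp5 and -0.53, -0.36 and -0.47 for Lgals3. Spp1, Fabp5, Lgals3 and Gpnmb correlated with each other at a mean Pearson r of 0.55 to 0.62 over 3 sections of 684 to 1061 spots, on log2(CPM + 100). Plin2 joined them at 0.36 to 0.49. Apoe had a mean r of 0.37 with Trem2 (0.28, 0.33 and 0.51) and of 0.21 with Spp1 (0.41, 0.01 and 0.22), so the order of the pair at 3 dpi was the reverse of that at 5 dpi. Cd9 had a mean r of 0.25 or less with every other member. Points of 1 section share a library, and Acp5 (348, 736 and 455 UMIs over all infarct spots) and Cd9 (881, 1662 and 1130 UMIs) were sparse. The part of sparse counts in their r was not tested.

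**Figure D4:**
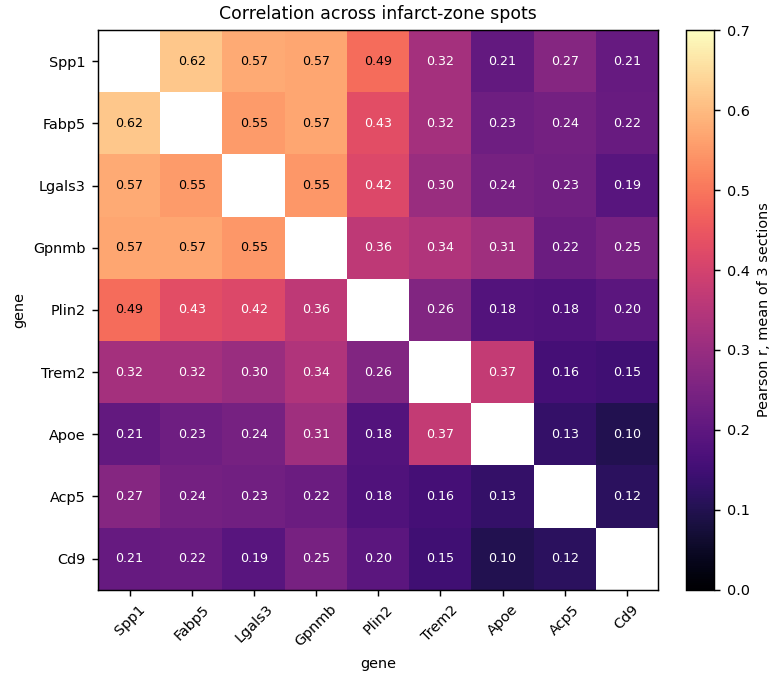
Pearson correlation between the 9 genes across infarct-zone spots on log2(CPM + 100), averaged over the 3 infarcted sections. Spp1, Fabp5, Lgals3 and Gpnmb form the bright block at 0.55 to 0.62, and the pair of Trem2 and Apoe stands at 0.37.

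Among 3977 other genes with at least 0.2 UMIs per infarct spot, those most like the mean of the 9 genes were Ftl1 and Fth1, the ferritin chains that store iron, the sphingolipid activator precursor Psap, and the lysosomal proteases Ctsb, Ctsd, Ctsl and Ctss. Lyz2, Cd68 and Tmsb4x completed the 10. Ranked by the lowest of 3 sections, r was 0.75 for Ftl1, 0.70 for Psap and 0.68 for Ctsb, down to 0.51 for Tmsb4x. Lyz2, Cd68 and Ctss are also among the pan-macrophage genes.

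Whether the genes followed macrophages inside the infarct was asked with spots matched on the cardiomyocyte share, along which the genes had been selected. Infarct spots of each section were put into 5 bins of cardiomyocyte share, and in each bin the 33.3% of spots richest in the pan-macrophage genes were compared with the 33.3% poorest. All 9 genes were higher in macrophage-rich spots, in every section, where 8.9% of 10557 genes were called higher and 7.07% lower by edgeR's quasi-likelihood test with the section as a block. Their median log2 fold change was 1.12, against -0.02 over all genes tested. The 11 pan-macrophage genes that set the classes summed to 5033, 7626 and 6940 CPM in the poor and 14419, 20420 and 20094 CPM in the rich spots, with a median log2 fold change of 1.35. The UMIs of these 11 genes also form the denominator of a ratio per 100 of them, and choosing spots on a denominator favours lower ratios in rich spots. The direction of that ratio is therefore a description only. Per 100 of their UMIs, 7 of the 9 genes were lower in the rich spots of every section, for instance Spp1 (37.7, 19.1 and 15.4 against 25.0, 18.1 and 10.6) and Trem2 (2.82, 3.08 and 3.33 against 2.37, 2.47 and 2.99). Gpnmb was higher in all 3 sections (3.08, 3.53 and 3.05 against 4.16, 4.04 and 4.59), and Apoe was higher at 3 dpi and lower in both 5 dpi sections.

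Gpnmb showed the widest difference: it measured 155, 269 and 211 CPM in macrophage-poor and 599, 825 and 923 CPM in macrophage-rich spots, a log2 fold change of 1.91 ± 0.10 (SE, edgeR adjusted p = 3.07e-15). The ranges of the classes did not overlap. Apoe measured 1585, 4008 and 4869 CPM against 5164, 9733 and 10823 CPM (1.40 ± 0.09, edgeR adjusted p = 8.61e-13), with the rich spots of 3 dpi just above the poor spots of 5 dpi M. Trem2 measured 142, 235 and 231 CPM against 342, 505 and 601 CPM (1.27 ± 0.09, edgeR adjusted p = 4.49e-12). Spp1 measured 1896, 1458 and 1067 CPM against 3602, 3689 and 2137 CPM (1.11 ± 0.09, edgeR adjusted p = 1.14e-10). Trem2 and Spp1 likewise had no overlap between classes, and neither had Fabp5, Lgals3, Plin2 and Acp5. How many of all tested genes had no such overlap was not counted, so it sets no gene apart.

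The remaining genes had log2 fold changes of 1.25 ± 0.09 for Fabp5, 1.12 ± 0.09 for Lgals3, 0.85 ± 0.09 for Plin2, 0.71 ± 0.13 for Acp5 and 0.43 ± 0.09 for Cd9 (edgeR adjusted p of 3.79e-12 to 7.44e-04). Acp5 and Cd9 missed the threshold when classes were set by the C1q genes alone (adjusted p of 0.172 and 0.2) and when spots were thinned to 1548 UMIs (0.344 and 0.991). Macrophage-rich spots were lower in 8 of 8 border cardiomyocyte genes (summed 15618, 7650 and 13485 CPM against 26916, 18327 and 21660 CPM, with none at 0) and in 12 of 12 genes of the cardiomyocyte share (16514, 4520 and 7213 CPM against 23239, 9340 and 10100 CPM), so the bins did not remove all of that axis. Median UMIs of rich and poor spots were 4782.5 and 6876 at 3 dpi, but 8222 and 6701 in 5 dpi F and 7129 and 6911 in 5 dpi M, so the order of depth turned between days. Their median positions, in steps from the border with negative values inside, were -3, -9 and -11 against -4, -24 and -18. With bins of steps in place of bins of cardiomyocyte share, 9 of 9 genes were higher. Those classes were no longer matched on that share. Its medians were 0.92%, 0.10% and 0.12% in the rich and 3.01%, 0.63% and 1.32% in the poor spots. The genes were selected along that share, so bins of steps cannot separate position from it. Some other immune lists moved with the classes: 5 of 5 tested resident macrophage genes were higher (sums of 169, 146 and 100.0 CPM in the poor and 363, 307 and 188 CPM in the rich spots), 4 of 4 tested dendritic and antigen presentation genes (866, 1097 and 1552 CPM against 1269, 2071 and 2558 CPM) and 3 of 6 monocyte genes. Of 5 tested neutrophil genes 2 were higher, with sums of 230, 221 and 285 CPM in the poor and 260, 293 and 189 CPM in the rich spots. Endothelial genes, 4 of 6 lower, went from 724, 601 and 702 CPM in the poor to 578, 448 and 555 CPM in the rich spots, and fibroblast genes, 2 higher and 1 lower of 9, from 11587, 23134 and 21715 CPM to 11486, 20995 and 18749 CPM. Adipocyte genes were at 67.4 CPM in the poor and 10.2 CPM in the rich spots of 5 dpi F and at or below 2.05 CPM in the other sections. The part of these in the result was not tested. Of 4 tested osteoclast genes, 1 was higher in macrophage-rich spots, with sums of 94.8, 126 and 96 CPM in the poor and 111, 130 and 95 CPM in the rich spots.

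**Figure D5:**
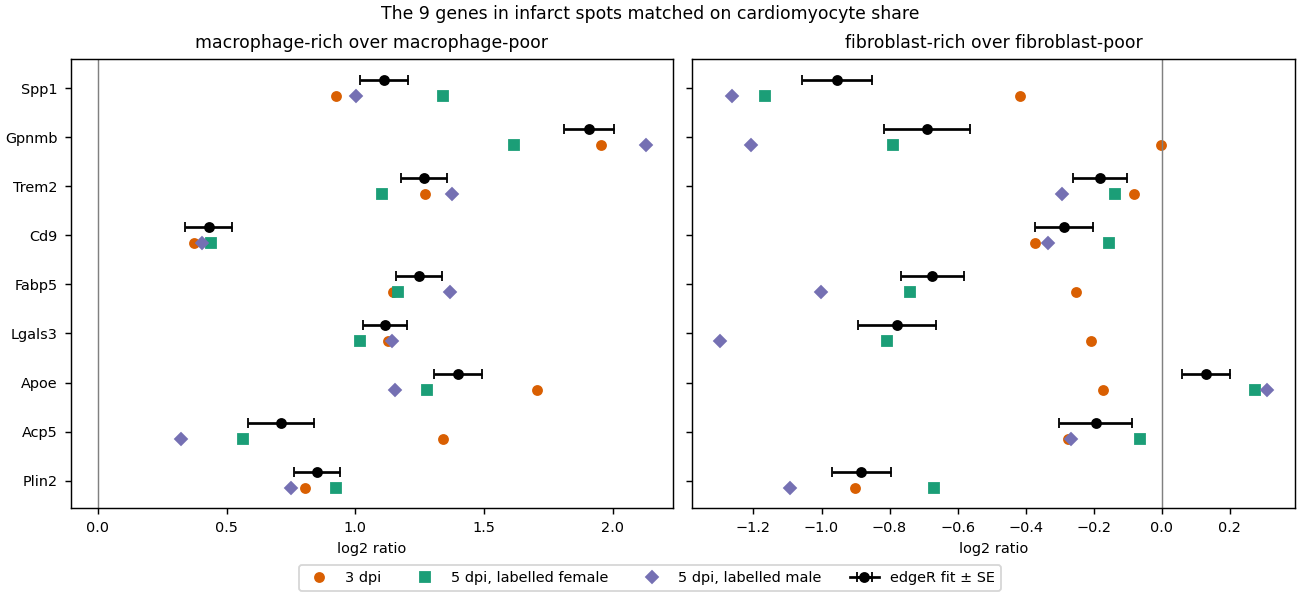
Log2 ratio of each gene between macrophage-rich and macrophage-poor (left) and fibroblast-rich and fibroblast-poor (right) infarct spots: edgeR estimate ± SE (black) and the CPM ratio within each infarcted section (coloured). All points on the left are above 0, and on the right only Apoe has points above 0, its edgeR estimate (0.13) and both 5 dpi sections.

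Fibroblast-rich and fibroblast-poor infarct spots were compared in the same way, with classes set by 9 fibroblast genes. Here 6 of the 9 genes were lower in fibroblast-rich spots and 0 higher by edgeR, where 2.73% of 10516 genes were called lower and 4.17% higher. The median log2 fold change of the 9 was -0.67, and 0.00 over all genes. At an unadjusted p under 0.05, 0 of the 9 were higher, and DESeq2 also called 0 higher. Summed pan-macrophage genes were 9597, 14445 and 13618 CPM in the poor and 9060, 13464 and 11606 CPM in the rich spots, with 2 of 11 called lower and none at 0. Resident macrophage genes, 1 of 5 tested called lower, were 287, 260 and 162 CPM against 244, 193 and 132 CPM, and dendritic and antigen presentation genes, 3 of 4 called lower, were 1100, 1722 and 2469 CPM against 1099, 1361 and 1722 CPM. Median UMIs were 5238.5 in the poor and 6622 in the rich spots at 3 dpi, but 7657 and 6564 in 5 dpi F and 7757 and 6197 in 5 dpi M, so the order of depth turned between days here too. Monocyte genes, 2 of 6 lower, went from 415, 445 and 433 CPM to 512, 396 and 270 CPM, and the 12 genes of the cardiomyocyte share, 10 of them lower, from 21634, 7792 and 10135 CPM to 19263, 5573 and 7778 CPM. Adipocyte genes were at 11.5 CPM in the poor and 79.3 CPM in the rich spots of 5 dpi F and at or below 1.18 CPM in the other sections. Median positions were -6, -20 and -15 steps in the poor and -3, -16 and -12 steps in the rich spots. Border cardiomyocyte genes, 5 of 8 called lower, were 24436, 14513 and 22226 CPM in the poor and 19162, 10593 and 16044 CPM in the rich spots, and the part of these in the result was not tested.

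Spp1 measured 3025, 3614 and 2442 CPM in fibroblast-poor and 2267, 1612 and 1018 CPM in fibroblast-rich spots, and fell by 0.95 ± 0.10 on the log2 scale (edgeR adjusted p = 4.00e-07). Its classes did not overlap. Plin2 measured 382, 390 and 407 CPM against 204, 246 and 191 CPM and fell by 0.88 ± 0.09 (edgeR adjusted p = 9.69e-08), again without overlap. Lgals3 and Fabp5 had no overlap either, and genes without overlap were not counted over all tested genes. Lgals3 fell by 0.78 ± 0.11, Gpnmb by 0.69 ± 0.13 and Fabp5 by 0.67 ± 0.09 (edgeR adjusted p of 1.91e-05 to 6.11e-04). DESeq2 called Spp1, Plin2 and Fabp5 lower but not Lgals3 (adjusted p = 0.128), Gpnmb (0.349) or Cd9 (0.297). Cd9 fell by 0.29 ± 0.09 with an edgeR adjusted p of 0.0413, a call lost under 10 of 14 alternatives, among them leaving out 5 dpi F (adjusted p = 0.189) or 5 dpi M (0.222).

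Trem2, Acp5 and Apoe did not pass the test. Trem2 measured 245, 390 and 450 CPM in fibroblast-poor and 232, 355 and 367 CPM in fibroblast-rich spots (log2 fold change -0.18 ± 0.08, edgeR adjusted p = 0.198), and Acp5 had -0.19 ± 0.11 (edgeR adjusted p = 0.345). Apoe measured 3444, 6349 and 6692 CPM against 3054, 7675 and 8298 CPM (0.13 ± 0.07, edgeR adjusted p = 0.338). The 3 dpi section was the one in which Apoe was lower in fibroblast-rich spots (log2 ratio -0.17). With that section left out, Apoe was higher there (log2 fold change 0.28, edgeR adjusted p = 1.17e-10). Trem2 was then lower (-0.23, edgeR adjusted p = 0.0147). These p-values rest on the 5 dpi sections alone, so they carry no spread between days and less replication than the main test. With spots matched on macrophage share instead, Spp1 (-0.73), Plin2 (-0.73), Lgals3 (-0.68), Fabp5 (-0.51) and Gpnmb (-0.51) still passed and Cd9 did not. With bins of steps in place of cardiomyocyte share, 5 genes were lower and Apoe was higher (0.28, edgeR adjusted p = 0.00775). In both of these matchings the fibroblast-poor spots had the higher median cardiomyocyte share in every section.

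The fibroblast contrast was then compared between days with an interaction term, a test added after these values were seen that has 1 section at 3 dpi and 1 residual degree of freedom, so that the spread between sections comes from 5 dpi alone. The log2 fold change was lower at 5 dpi than at 3 dpi by 1.0 ± 0.13 for Gpnmb, 0.85 ± 0.12 for Lgals3, 0.81 ± 0.10 for Spp1 and 0.63 ± 0.11 for Fabp5, and higher by 0.45 ± 0.08 for Apoe (edgeR adjusted p of 6.68e-13 to 1.72e-05). Of 10516 genes, 0.504% were called lower and 0.228% higher. Gpnmb, for instance, measured 338 CPM in both classes at 3 dpi but 699 and 404 CPM in poor and rich spots of 5 dpi F and 727 and 315 CPM in those of 5 dpi M. None of the 5 passed with classes of the upper and lower 50% of spots. There the differences kept their sign and were smaller, at -0.61 for Gpnmb, -0.45 for Lgals3, -0.42 for Spp1, -0.40 for Fabp5 and 0.28 for Apoe. With thinned spots Fabp5, at a similar difference (-0.59), and Apoe, at a smaller one (0.25), missed the threshold. With spots matched on macrophage share, Fabp5 did not pass (-0.33, edgeR adjusted p = 0.258), and the differences of Spp1 (-0.43, 0.0101), Gpnmb (-0.63, 0.00552) and Lgals3 (-0.57, 0.00884) were smaller, and that of Apoe (0.60, 2.27e-06) larger. The same term for the macrophage contrast called 0 of the 9 genes, with 0.00947% of genes called higher and 0.104% lower, and 1 (Acp5) had an unadjusted p under 0.05.

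The partners of these genes were read from 68 pathway genes in 8 lists, of which 61 could be tested between infarct and remote zone. There, 39 were higher and 17 lower by edgeR with TMM scaling, and 41 and 13 when scaled by library size alone, which moved the median log2 fold change of all genes from 0.08 to 0.47 and the higher share of all calls from 52.1% to 73.8%. Over all genes of that comparison, 28.2% were called higher and 25.9% lower, against which the counts of each list below are to be read. Of 63 tested between macrophage classes 27 were higher and 5 lower, where 8.9% and 7.07% of all genes were. Of 63 tested between fibroblast classes 1 was higher and 16 lower, where 4.17% and 2.73% of all genes were. The 16 became 4 without 5 dpi F, 10 without 5 dpi M, 5 by DESeq2 and 4 with thinned spots. Most of the 16 calls, which include the pathway genes named below as lower in fibroblast-rich spots, were therefore lost without 5 dpi F. All 6 genes of TREM2 signalling were higher, with log2 fold changes of 2.55 ± 0.15 for the adaptor Tyrobp, 1.83 ± 0.37 for its relative Hcst and 1.82 ± 0.19 for the lipid phosphatase Inpp5d. They were also all higher in macrophage-rich spots (Tyrobp 1.26 ± 0.09, Hcst 1.22 ± 0.23, the kinase subunit Pik3cg 1.20 ± 0.28), and 1 was lower in fibroblast-rich spots (Inpp5d -0.42 ± 0.13).

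The lipid lists differed in direction. Of 8 tested genes of the lipid droplet list, 7 were lower and 0 higher in the infarct zone, among them Plin5 (-4.63 ± 0.24), Dgat2 (-3.48 ± 0.21) and G0s2 (-2.52 ± 0.17), which serve fat storage in heart muscle and other tissues, and none of the 8 was called in macrophage-rich spots. Hilpda, an inhibitor of lipolysis induced by low oxygen, fell in fibroblast-rich spots (-1.01 ± 0.23). Of the 7 tested genes of lipid uptake and breakdown, 5 were higher and 2 lower: the scavenger receptor Msr1 stood at 2.44 ± 0.33, and the muscle and capillary genes Lpl (-3.55 ± 0.16) and Cd36 (-2.06 ± 0.15) fell. In macrophage-rich spots 4 of 7 were higher, led by the lysosomal lipase Lipa (1.05 ± 0.10), the cholesterol carrier Npc2 (0.88 ± 0.09) and Msr1 (0.76 ± 0.13).

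Cholesterol efflux and storage had 4 higher and 1 lower of 6 tested genes in the infarct, with the esterifying enzyme Soat1 at 2.05 ± 0.19 and the exporters Abca1 at 2.01 ± 0.20 and Abcg1 at 1.38 ± 0.23. In macrophage-rich spots 5 of 7 were higher, led by the phospholipid transfer protein Pltp (1.55 ± 0.10), Abca1 (1.0 ± 0.12) and the cholesterol ester hydrolase Nceh1 (0.74 ± 0.13). In fibroblast-rich spots 3 of 7 were lower, Nceh1 (-0.70 ± 0.13), Nr1h3 (-0.65 ± 0.20) and Soat1 (-0.40 ± 0.12). All 9 tested genes of the lysosome and protease list were higher in the infarct and 7 in macrophage-rich spots. Atp6v0d2, a subunit of the lysosomal proton pump, was at 0 UMIs in every remote zone and at 10.8, 16.3 and 11 CPM in the infarct zones, and the protease genes Lgmn and Ctsz both reached 2.11. In fibroblast-rich spots 5 of the 9 were lower and 1, the collagen-degrading protease Ctsk, was higher (0.57 ± 0.13).

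Of 7 osteopontin receptor genes, 6 were higher in the infarct, with the integrin subunit Itgb3 at 2.23 ± 0.36, Cd44 at 2.08 ± 0.17 and Itgav at 1.43 ± 0.15. They did not move with the macrophage genes as a list: in macrophage-rich spots Itga4 was higher (1.29 ± 0.30) and 3 were lower, including Itgb3 (-1.01 ± 0.20) and Itga9 (-0.55 ± 0.13). None of the 7 was called between fibroblast classes. Among 7 tested transcription factors, Spi1, which encodes PU.1, was higher (2.07 ± 0.17), as was Cebpb (0.80 ± 0.22), and Mitf, a regulator of lysosomal genes, was lower (-1.73 ± 0.25). In macrophage-rich spots the MITF relative Tfec (1.68 ± 0.43) and Spi1 (0.91 ± 0.10) were the 2 called of 8, and Cebpb fell in fibroblast-rich spots (-0.51 ± 0.15).

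Relatives of the 9 genes were mixed in direction: of 11 tested, 6 were higher and 4 lower in the infarct. The muscle fatty acid carrier Fabp3, a relative of Fabp5, was at 7819, 5680 and 9539 CPM in the remote zones and at 1145, 317 and 583 CPM in the infarct zones (-3.97 ± 0.23). Apod, a lipocalin that carries lipids, also fell (-2.28 ± 0.24), and the leukocyte tetraspanin Cd53, a relative of Cd9, was higher (2.59 ± 0.20). In macrophage-rich spots 2 of 11 tested relatives were higher, Cd53 (1.17 ± 0.11) and the lysosomal phosphatase Acp2 (0.70 ± 0.13), and 2 were lower.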

How the data were processed

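The deposited matrices hold raw UMI counts per gene and spot, which the authors made with Space Ranger; the labels name mm10 and the methods an Ensembl-based reference with GFP added. No genome coordinate was needed for the counts, and the zones, belts of steps and maps used the array positions of the spots. The authors marked tissue by hand, and 623 spots outside their mask in 1 section were left out. Kept spots had 500 UMIs and 250 genes or more, with mitochondrial UMIs no higher than 50%. A low spot had a cardiomyocyte share under 0.5 times the 90th percentile of its section, and infarct patches held at least 10 spots.

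UMIs were summed per section and zone or class and tested with edgeR 4.0.16 (R 4.3.3; TMM, default count filter, section as block, Benjamini-Hochberg over all genes tested, threshold 0.05), which was tested on simulated data. DESeq2, other scalings, filters, matchings and left-out sections were tried. Pathway genes named are the up to 3 largest changes per list among those called. The members and lists were chosen with earlier results of these data known.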

Additional observations from a re-analysis of the deposited data

Results flagged for a closer look

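In the interaction test of the fibroblast contrast, which has 1 section at 3 dpi, 1 residual degree of freedom and was added after the values were seen, 5 genes were called. The log2 fold change at 5 dpi minus that at 3 dpi was -1.0 for Gpnmb, -0.85 for Lgals3, -0.81 for Spp1, -0.63 for Fabp5 and 0.45 for Apoe. For Apoe the sections also pointed opposite ways, with log2 ratios of fibroblast-rich over fibroblast-poor spots of -0.17 at 3 dpi, 0.27 in 5 dpi F and 0.31 in 5 dpi M. None of the 5 was called with classes of the upper and lower 50% of spots, where each difference kept its sign and was smaller.

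The 623 spots of 5 dpi M that lie outside the marked tissue entered no comparison, and all 9 genes were above the control section there. Summed over all 623 spots, of which 560 passed the spot filter, they held 1135 CPM of Spp1, 255 of Gpnmb, 231 of Trem2, 209 of Cd9, 769 of Fabp5, 772 of Lgals3, 4100 of Apoe, 85.2 of Acp5 and 255 of Plin2.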

How the results depend on the processing

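All 9 genes were called higher in macrophage-rich spots under 14 of 16 alternatives, and 7 under the other 2. The alternatives without bins, or with bins of fibroblast share or steps, were not matched on the cardiomyocyte share along which the genes were selected. In the fibroblast contrast, 6 genes were called lower by edgeR, 3 by DESeq2 and between 4 and 7 under the others. Over all genes, DESeq2 called 333 higher and 198 lower in the macrophage contrast against 940 and 746 by edgeR, and 140 and 67 against 439 and 287 in the fibroblast contrast; with thinned spots the numbers were 172 and 81, and 98 and 53. Without 5 dpi F they were 588 and 349, and 182 and 74, and without 3 dpi the fibroblast contrast called 621 and 597. Without bins of cardiomyocyte share the macrophage contrast called 1363 and 1609, and the 2 other matchings between 1332 and 1448 each way. With the C1q genes alone it called 616 and 383. The fibroblast contrast called 175 lower with classes of 50% of spots, 489 without bins and 563 with bins of steps. The interaction between fibroblast classes called 24 genes higher and 53 lower, 7 and 7 with thinned spots, 4 and 1 with classes of 50%, 44 and 91 with the stricter infarct limit, 48 and 146 without bins and 28 and 94 with bins of macrophage share. Acp5 turned from -0.19 to 0.038 (log2) in fibroblast-rich spots without bins of cardiomyocyte share. Pathway genes called in the macrophage contrast, 27 and 5, were 17 and 2 by DESeq2 and 12 and 0 with thinned spots; those lower in the fibroblast contrast, 16, were 5 by DESeq2, 4 with thinned spots, 4 without 5 dpi F, and 10 without 5 dpi M or without bins. Between zones, 39 pathway genes were higher and 17 lower, with 34 to 43 and 13 to 18 under the alternatives. The median log2 ratio of the 9 genes between infarct and remote zone was 3.4 ± 0.61 over 3 sections and moved by less than this SD throughout. The median log2 ratio of 5 dpi over 3 dpi in the infarct was 0.36 ± 0.06 over 2 sections, 0.45 over all UMIs and 0.23 with the stricter infarct limit. Zone and class contrasts were made within sections with the section as a block. Between days, no paired analysis was possible because the groups hold different hearts and share fewer than 2 replicate numbers. Alternatives that match on macrophage share, fibroblast share or steps, and the interaction test, were chosen after seeing the data. The 3 dpi group and the control are 1 section each, so no statement about days has replicates on both sides.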
